A study of Homo sapiens with 4 samples.

Results

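The 7 genes described here encode the demethylases that remove N6-methyladenosine (m6A) from RNA, namely FTO and ALKBH5, and the proteins with a YTH domain that bind it, namely YTHDF1, YTHDF2, YTHDF3, YTHDC1 and YTHDC2. They were taken by gene name from a table of 60544 genes, in which all 7 were found, and all 7 passed the filter on low counts. The libraries were made from poly(A) RNA of PC3, an established line from a human prostate cancer. Cells labelled shNC (2 libraries) served as controls and were compared with cells labelled sh812 (2 libraries), which the series design describes as METTL3 knockdown. All cells were grown in RPMI-1640 with 10% fetal bovine serum. Whether an arm was 1 clone or a pool, and how long the knockdown had run, is not given in the sources used here. The labels number the replicates without saying that they were separate cultures, so the p-values measure the spread between these libraries, which may be technical.

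m6A is a methyl group that a nuclear complex with METTL3 as its catalytic subunit places on adenosines of messenger RNA. FTO and ALKBH5 are iron-dependent and 2-oxoglutarate-dependent dioxygenases of the AlkB family that can take the group off again. The YTH domain holds the methylated base in an aromatic pocket. Among the readers, YTHDF1, YTHDF2 and YTHDF3 are closely related cytoplasmic proteins best known for their part in decay and translation of bound RNA, YTHDC1 is a nuclear protein tied to splicing and export, and YTHDC2 is a helicase known for its role in germ cells. The comparison asked whether the transcripts of erasers and readers differed once the writer transcript was reduced. Neither m6A nor protein was measured.

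The letters GGACT are the core of the sequence in which m6A is most often placed and which the readers bind. The search covered the sequence, in the sense of the RNA, of 1 principal coding transcript per gene in GENCODE 29 (GRCh38). The transcripts of 5 of the 7 genes held GGACT within 500 bases of the last base of the stop codon, as did 62.3% of 13197 tested protein-coding genes. The windows below show the site nearest to the stop codon in 4 of them, because m6A is known to gather in that part of messenger RNAs. Capitals mark the match, and no methylation of these sites was measured.
ALKBH5: agtcctcagaGGACTgctctgaggc
YTHDF1: agtcccccgtGGACTacggcaccag
YTHDF2: aagagaattaGGACTtttttcttaa
YTHDC2: gggctctgctGGACTaggaggagta
The match began 57 bases before the end of the stop codon in ALKBH5, 312 bases before it in YTHDF1 and 203 bases before it in YTHDC2, all in coding sequence. In YTHDF2 it began 78 bases after the stop codon, in the 3′ UTR. The number of matches per kb of transcript ran from 0.303 in YTHDF1, 0.308 in YTHDC1 and 0.425 in FTO to 1.03 in YTHDF2 and 1.46 in ALKBH5, against a median of 0.932 over the tested protein-coding genes. In FTO all 5 matches lay in its 3′ UTR of 10026 bases, the nearest 2027 bases after the stop codon, and the single match in YTHDC1 lay in the 5′ UTR. These counts and positions hold for the transcript searched, which had 11766 bases in FTO and 3244 in YTHDC1. The longest annotated transcript of YTHDC1 has 6232 bases, so part of its sequence was not searched.

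Total counts per library ranged from 31450648 to 37041330. Each gene of the set had between 1015 and 5316 counts in every library, so counting error was small. The targeted transcript, METTL3, went from 1682 and 1379 counts in shNC to 269 and 313 in sh812, a log2 fold change of -2.42 (95% interval -2.64 to -2.20, adjusted p = 5.54e-14 in edgeR's quasi-likelihood test). The labelled cell type was checked against markers. In the epithelial list KRT8, KRT18, KRT19 and EPCAM ranged from 69.3 to 449.9 and CDH1 from 10.6 to 17.7, while CD44 ranged from 365.2 to 416.8 and VIM, a mesenchymal marker, from 529.5 to 640.5 CPM (counts relative to a library size adjusted by TMM). The leukocyte list summed to between 0.997 and 1.71 CPM, with CD3E at 0 in all 4 libraries, and KLK2 and KLK3, the secretory markers of prostate, were also at 0. Endothelial and fibroblast lists did not mark other cells cleanly: PECAM1 ranged from 23.7 to 38.5 CPM and COL1A1 from 29.3 to 39.4 CPM, while VWF and CDH5 stayed at or under 0.168 CPM. Both sh812 libraries were above both shNC libraries for PECAM1, COL1A2, EPCAM, CDH1, KRT8 and KRT18, and below them for KDR (18.9 and 17.9 against 11.1 and 11.7 CPM), COL1A1, CD44 and VIM. The part of these markers in the results was not tested.

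None of the 7 eraser and reader transcripts differed between sh812 and shNC beyond the test's threshold. At an adjusted p under 0.05 (edgeR's quasi-likelihood test, Benjamini-Hochberg adjustment over 16802 genes), 0 of 7 were called, while 10.8% of all tested genes were (5.43% higher and 5.42% lower). DESeq2 and limma-voom also called 0. At an unadjusted p under 0.05 there were 2 of 7 in edgeR and in limma-voom and 1 of 7 in DESeq2, against 24.8% of all tested genes in edgeR. The point estimates were positive for 4 genes and negative for 3, from -0.19 in YTHDC2 to 0.18 in ALKBH5 on the log2 scale. Their median absolute size was 0.10, against 0.17 over all tested genes and 0.33 over the called ones. The median SE was 0.064 in the set and 0.118 over all tested genes, so these sizes were not compared at equal precision. The 95% intervals of all 7 lay between -0.36 and 0.31, which as a fold is between 0.779 and 1.24.

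**Figure D1:**
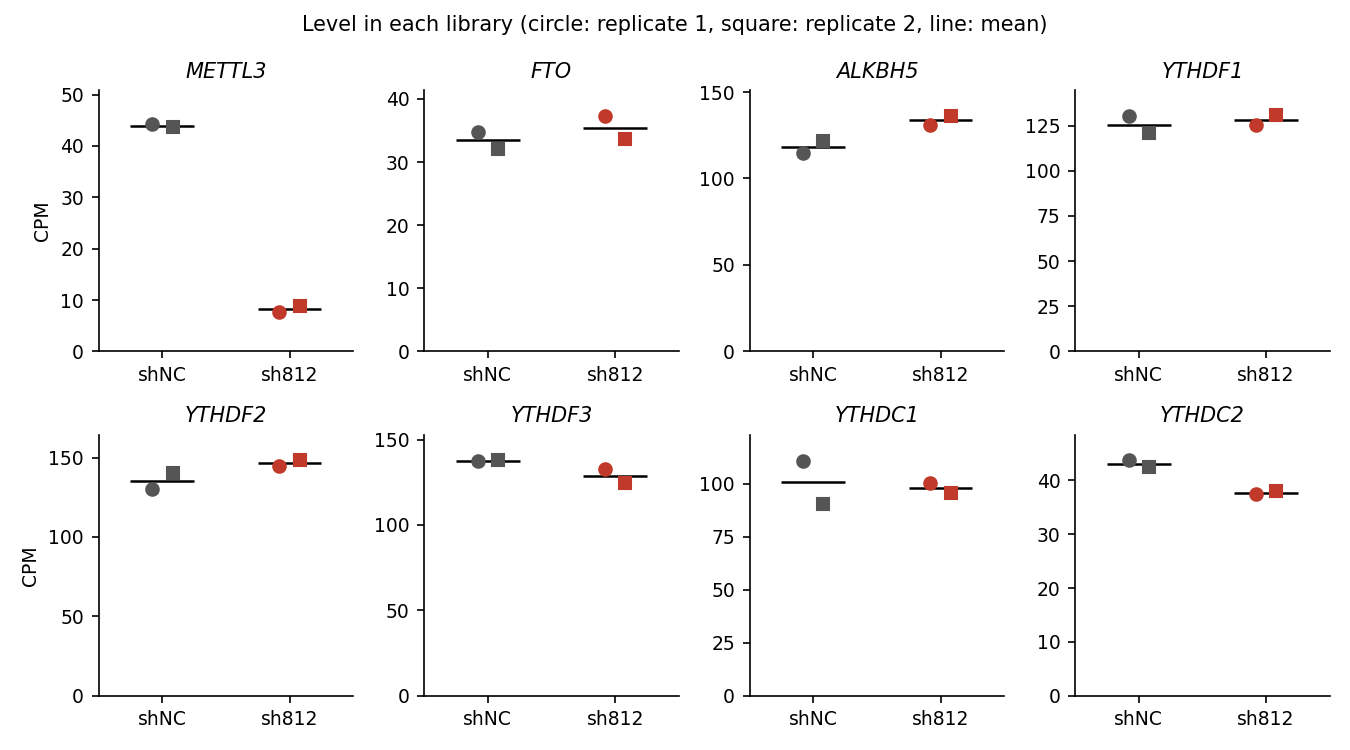
Level in CPM of METTL3 and of each eraser and reader gene in the 4 libraries (grey, shNC; red, sh812; circle, replicate 1; square, replicate 2; line, group mean), with every axis starting at 0. METTL3 drops from about 44.0 to 8.20 CPM, while each of the other genes keeps a group mean between 87.5% (YTHDC2) and 113% (ALKBH5) of its shNC mean.

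Of the demethylases, ALKBH5 had the smallest p-value of the set. ALKBH5 (ENSG00000091542) is the nuclear demethylase whose loss is known to raise m6A in messenger RNA, and lies on the plus strand of chromosome 17 from 18183078 to 18209954. Its counts were 4356 and 3847 in shNC and 4605 and 4871 in sh812, which is 114.8 and 121.6 CPM against 131.2 and 136.1 CPM. Both sh812 libraries were above both shNC libraries. The group means were 118 ± 4.81 and 134 ± 3.48 CPM (SD, n = 2). The difference was 0.18 on the log2 scale (SE 0.06, 95% interval 0.047 to 0.31) at an adjusted p of 0.072 in edgeR. With this SE, a log2 change of 0.19 would have been called. An antisense transcript, AC087164.1, overlaps 357 exonic bases of ALKBH5 and had 0 to 2 counts in a library, against at least 3847 for ALKBH5.

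FTO (ENSG00000140718), the first m6A demethylase to be described and a gene known for its link to body mass, lies on the plus strand of chromosome 16 from 53701692 to 54158512. It had 1318 and 1015 counts in shNC and 1310 and 1203 in sh812. On the CPM scale these were 34.7 and 32.1 against 37.3 and 33.6. The groups overlapped, since sh812 replicate 2 was below shNC replicate 1. The log2 fold change was 0.08 (SE 0.09, 95% interval -0.10 to 0.27), with an adjusted p of 0.62 in edgeR, and a log2 change of 0.27 would have been needed for a call. FTO had the fewest counts of the set and the widest SE.

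FTO starts back to back with RPGRIP1L, a gene of the ciliary transition zone that is read in the opposite direction. The RefSeq windows around their start sites (250 bases before to 50 after, GRCh38.p14) share 204 bases. The FTO window, chr16:53703906-53704205 on the plus strand, is shown because both genes were measured; capitals mark the bases that also lie in the RPGRIP1L window.
FTO: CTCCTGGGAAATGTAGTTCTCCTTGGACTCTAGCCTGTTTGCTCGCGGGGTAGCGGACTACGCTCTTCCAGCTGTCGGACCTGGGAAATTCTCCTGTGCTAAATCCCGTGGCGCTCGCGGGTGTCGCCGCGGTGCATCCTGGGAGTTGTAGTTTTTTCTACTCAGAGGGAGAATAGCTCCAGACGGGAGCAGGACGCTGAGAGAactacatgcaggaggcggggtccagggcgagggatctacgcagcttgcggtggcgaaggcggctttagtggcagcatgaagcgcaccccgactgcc
RPGRIP1L had 424 and 262 counts in shNC and 422 and 412 in sh812, or 11.2 and 8.28 CPM against 12.02 and 11.51 CPM. Both sh812 libraries were above both shNC libraries, but the first shNC library was close to them. Its log2 fold change was 0.27 (SE 0.14, 95% interval -0.028 to 0.56, adjusted p = 0.26 in edgeR), so neither gene of the pair was called. In GENCODE 29 the spans of FTO and RPGRIP1L overlap by 2247 bases without any shared exon base.

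The YTHDF paralogs, which are often described as partly redundant, lay within a narrow range and differed in sign. YTHDF2 (ENSG00000198492), the reader best known for recruiting the deadenylase that shortens poly(A) tails, lies on chromosome 1 from 28736621 to 28769775. It was at 130.0 and 140.2 CPM in shNC and at 144.8 and 148.5 CPM in sh812, from 4931, 4433, 5084 and 5316 counts. Both sh812 libraries were higher, by less than the gap between the shNC libraries in the closest pair. The log2 fold change was 0.12 (SE 0.06, 95% interval -0.0096 to 0.25, adjusted p = 0.24 in edgeR).

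YTHDF3 (ENSG00000185728), a partner of the other YTHDF proteins, lies on chromosome 8 from 63168553 to 63212786. It was at 137.3 and 138.2 CPM in shNC and at 132.7 and 124.4 CPM in sh812, from 5206, 4372, 4658 and 4452 counts. Both sh812 libraries were lower, and the shNC libraries were nearly equal. The log2 fold change was -0.10 (SE 0.06, 95% interval -0.23 to 0.029, adjusted p = 0.34 in edgeR). The noncoding gene YTHDF3-AS1, which is annotated next to YTHDF3 and named as its antisense, was chosen for mention after its values were seen. It had 21 and 24 counts in shNC and 44 and 48 in sh812, with a log2 fold change of 0.99 (SE 0.44, 95% interval 0.076 to 1.90), and was not called (adjusted p = 0.16 in edgeR). Its sign was opposite to that of YTHDF3.

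YTHDF1 (ENSG00000149658), best known for promoting translation of bound RNA, is on chromosome 20, minus strand, from 63195429 to 63216234. It was at 130.1 and 120.8 CPM in shNC and at 125.5 and 130.8 CPM in sh812, from 4934, 3819, 4407 and 4680 counts. The groups overlapped: sh812 replicate 1 lay between the shNC libraries and sh812 replicate 2 just above both. The log2 fold change was 0.03 (SE 0.06, 95% interval -0.10 to 0.16, adjusted p = 0.82 in edgeR), and its sign turned with library size alone as the scaling (-0.015). Processed pseudogenes of these readers took few counts: YTHDF1P1 had 0 to 2 and YTHDF2P1 had 3 to 12 in a library, and FTOP1, a pseudogene of FTO, had 0 or 1.

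The YTHDC genes encode readers that share the YTH domain but little else with the YTHDF proteins. YTHDC2 (ENSG00000047188) lies on chromosome 5 from 113513683 to 113595285 and was at 43.8 and 42.5 CPM in shNC against 37.4 and 38.0 CPM in sh812. The counts were 1660 and 1343 against 1314 and 1361. Both sh812 libraries were below both shNC libraries, and the gap between the groups exceeded the spread within each. The group means were 43.1 ± 0.918 and 37.7 ± 0.423 CPM (SD, n = 2). The log2 fold change was -0.19 (SE 0.08, 95% interval -0.36 to -0.025), for which edgeR gave an unadjusted p of 0.026 and an adjusted p of 0.14. With this SE, a log2 change of 0.25 would have been called.

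YTHDC1 (ENSG00000083896) on chromosome 4, minus strand, from 68310387 to 68350089, had the largest spread between control libraries in the set. It was at 110.8 and 90.2 CPM in shNC and at 100.4 and 95.5 CPM in sh812, from 4202, 2853, 3525 and 3419 counts. Both sh812 libraries lay between the shNC libraries. The log2 ratio of shNC replicate 2 to replicate 1 was -0.30, against a log2 fold change between groups of -0.04 (SE 0.08, 95% interval -0.20 to 0.12, adjusted p = 0.82 in edgeR). The sign was therefore set by which control library was used: the log2 fold change was 0.12 without shNC replicate 1, and leaving out shNC replicate 2 instead gave -0.17.

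**Figure D2:**
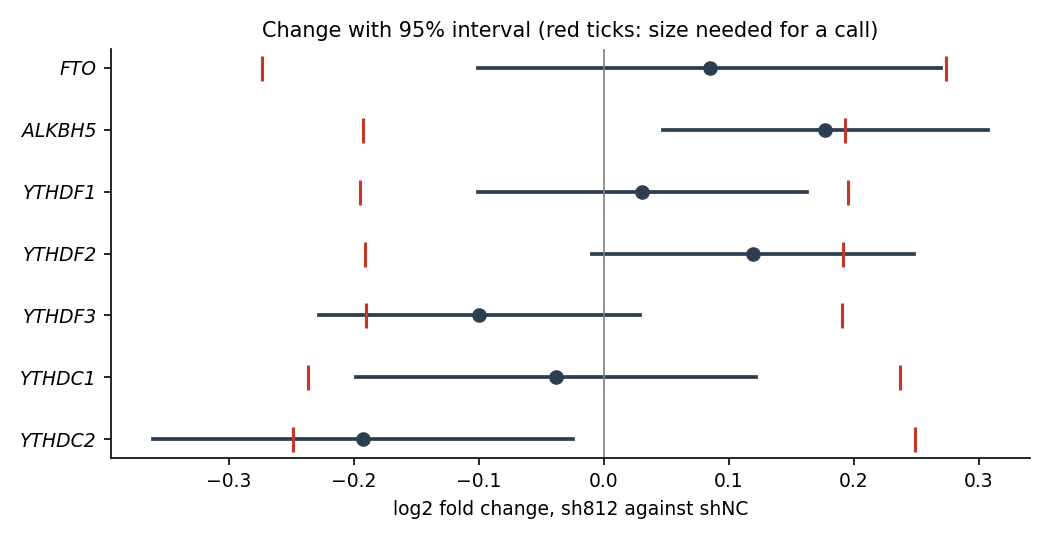
Log2 fold change of sh812 against shNC for the 7 genes (points) with 95% intervals from edgeR (lines); the red ticks mark the size of change that would have been called at each gene's SE. ALKBH5 (0.18) and YTHDC2 (-0.19) lie nearest to their ticks, at 0.19 and 0.25, and 5 of the 7 intervals include 0.

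In 4 of the 7 genes the libraries of the groups did not overlap, with ALKBH5 and YTHDF2 higher and YTHDF3 and YTHDC2 lower in sh812. This arrangement was found in 53.6% of all tested genes (26.2% higher and 27.4% lower), so the share in the set was near the background.

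The absence of calls held in each of 10 alternatives that used all 4 libraries, but not when a control library was left out. Without shNC replicate 2, 3 of the 7 genes were called in edgeR: ALKBH5 (log2 fold change 0.22, adjusted p = 0.0031), YTHDF2 (0.18, adjusted p = 0.019) and YTHDC1 (-0.17, adjusted p = 0.047). Without that library the control arm has 1 sample, which is then assumed to vary like the sh812 libraries, and the number of called genes over the whole table went from 912 higher and 910 lower to 1703 higher and 1549 lower. Leaving out any of the other 3 libraries gave 0 called members. In those fits ALKBH5 had log2 fold changes of 0.14, 0.15 and 0.20 and adjusted p-values from 0.16 to 0.48.

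The estimates moved with the removal of differences between libraries that follow transcript length. The exon lengths of the set run from 3190 bases in ALKBH5 to 10816 in YTHDC2 and 21379 in FTO. With each library's trend on exon length removed, ALKBH5 went from 0.18 to 0.13 and YTHDC2 from -0.19 to -0.12, while FTO went from 0.08 to 0.18. The adjusted p-values were then 0.18, 0.36 and 0.20 in edgeR. The estimate of YTHDF3 went from -0.10 to -0.068, and the sign turned for YTHDF1 (0.03 to -0.018) and YTHDC1 (-0.04 to 0.0042).

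**Figure D3:**
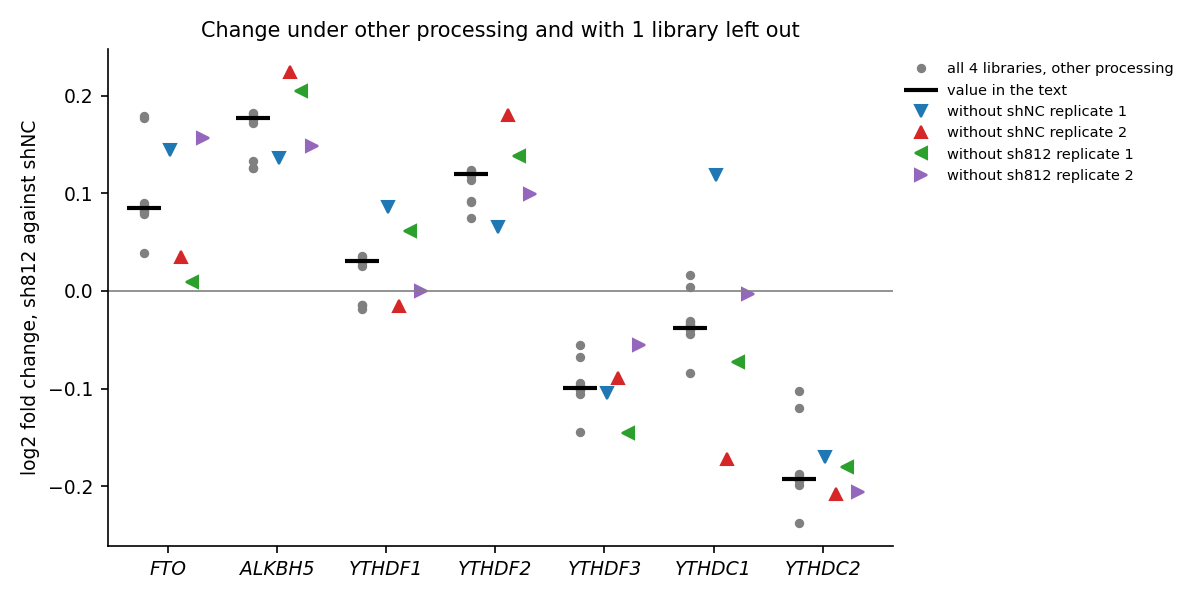
Log2 fold change of each gene under other processing of all 4 libraries (grey dots), with 1 library left out (triangles) and as given in the text (black bar). The triangles of YTHDC1 spread from -0.17 to 0.12 and those of YTHDF1 lie on both sides of 0, whereas ALKBH5 and YTHDF2 stay above 0 and YTHDF3 and YTHDC2 below it.

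Levels were compared between genes as CPM per kb of exon, using the union of annotated exons. In shNC the highest were YTHDF1 at 38.0 ± 2.00, ALKBH5 at 37.1 ± 1.51 and YTHDF2 at 35.0 ± 1.86 (SD, n = 2), which did not differ beyond their spread. YTHDF3 followed at 22.4 ± 0.114, YTHDC1 at 14.3 ± 2.07, YTHDC2 at 3.99 ± 0.0849 and FTO at 1.56 ± 0.0878. These last 4 were separated from each other by more than their spread, and the order from YTHDF3 to FTO was the same in sh812. In sh812 ALKBH5, at 41.9 ± 1.09, came first. The order of the 3 highest depended on the length used, and with the longest transcript YTHDF2 came before ALKBH5 and YTHDF1 in each library but not by a tested amount. Against protein-coding genes, ALKBH5, YTHDF1 and YTHDF2 stood at the 90.5th, 90.8th and 90.0th percentile of this level in shNC, YTHDC2 at the 44.2nd and FTO at the 26.9th.

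The level of ALKBH5 per kb was 22.1 and 25.4 times that of FTO in the shNC libraries and 23.6 and 27.1 times in the sh812 libraries, so the groups overlapped. With the longest transcript as the length, the ratio was 14.2 to 17.3 over the 4 libraries. The position of the writer transcript relative to FTO differed between the groups. METTL3 was at 4.63 and 4.93 times the FTO level in shNC and at 0.745 and 0.944 times in sh812, or at 0.958 and 1.21 times with the longest transcript as the length. Relative to ALKBH5, METTL3 was at 0.209 and 0.194 in shNC and at 0.0316 and 0.0348 in sh812, or at 0.421 and 0.390 and at 0.0636 and 0.0700 with the longest transcript. These ratios describe transcripts, not enzyme activity.

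Within the YTHDF group the shares of the summed level per kb were close to constant. YTHDF1 made up 41.3% and 38.4% in shNC and 39.2% and 40.3% in sh812. YTHDF2 made up 35.3% and 38.1% in shNC and 38.7% and 39.2% in sh812. YTHDF3 made up 23.4% and 23.5% in shNC and 22.2% and 20.5% in sh812. The YTHDF2 share was higher and the YTHDF3 share lower in both sh812 libraries, by amounts near the spread between replicates of YTHDF2 in shNC and of YTHDF3 in sh812. The sum itself was 95.4 and 95.3 CPM per kb in shNC and 97.1 and 98.3 in sh812.

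**Figure D4:**
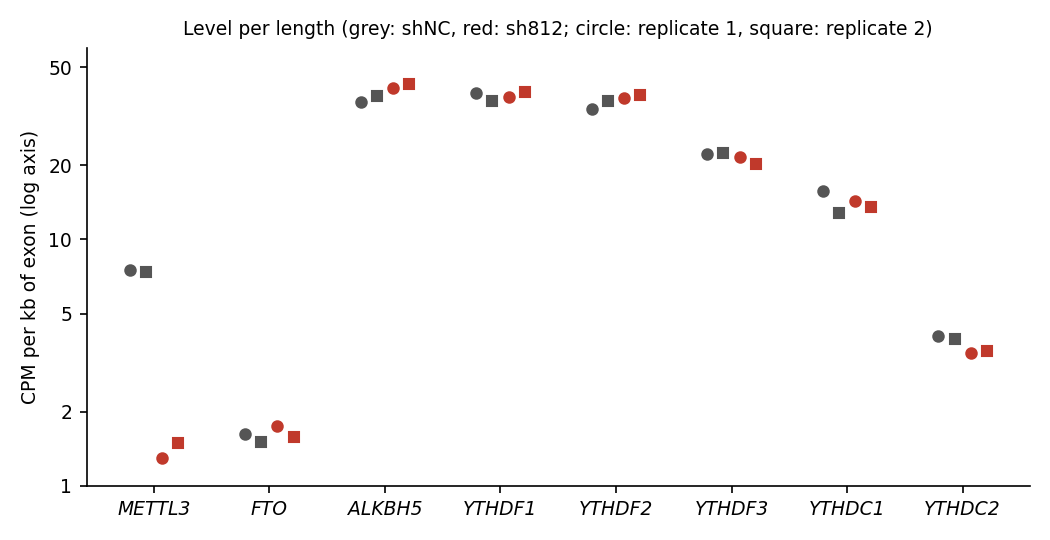
CPM per kb of exon on a log axis for METTL3 and the 7 genes in each library (grey, shNC; red, sh812; circle, replicate 1; square, replicate 2). With this length METTL3 lies above FTO in shNC and below it in sh812, and the 7 genes keep a range from about 1.56 for FTO to about 38.0 for YTHDF1 in shNC.

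The neighbours of the members on their chromosomes were compared next. Among the 5 tested genes on each side of a member, the median log2 fold change was -0.046 for FTO, -0.032 for ALKBH5, 0.067 for YTHDF1, 0.017 for YTHDF2, -0.057 for YTHDC1 and -0.035 for YTHDC2. The median was 0.50 around YTHDF3, where none of the 10 neighbours was called and 8 of them had a mean under 2 CPM in both groups. The other 2, GGH and CYP7B1, had log2 fold changes of 0.0080 and -0.27. Of the 70 neighbours, 7 were called, a share near the 10.8% of all tested genes: CHD9 and RBL2 near FTO, SMCR8 near ALKBH5 and MCC near YTHDC2 fell, and PPDPF near YTHDF1, UTP3 near YTHDC1 and DCP2 near YTHDC2 rose. They are named because the count is small, and were chosen after their values were seen. DCP2, which encodes the catalytic subunit of the decapping enzyme, rose by 0.38 on the log2 scale (adjusted p = 0.0061 in edgeR), beside the estimate of -0.19 in YTHDC2. The estimate of 0.18 in ALKBH5 was above those of its 10 neighbours, which ran from -0.37 to 0.052.

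The genes whose pattern over the 4 libraries was most like that of each member were sought among 10413 other protein-coding genes with a mean of at least 5 CPM. Likeness was the root mean square difference of log2 CPM after centring each gene. The closest were EIF3C for FTO (0.0078), BTBD2 for ALKBH5 (0.0042), GLIPR1 for YTHDF1 (0.0079), MGST2 for YTHDF2 (0.0051), MBTPS2 for YTHDF3 (0.0036), TRPM7 for YTHDC1 (0.010) and SH3KBP1 for YTHDC2 (0.0019). EIF3C has a near-identical copy, EIF3CL, so its count is uncertain. With 4 libraries and small changes many genes are as near, since 211 (YTHDC1) to 1291 (YTHDF2) genes lay within 0.05 of a member.

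Genes that work with the erasers and readers were read from 5 lists with 57 entries, all of which were tested. Their counts of called genes stand against 5.43% called higher and 5.42% called lower, 10.8% in all, over the whole table. The lists were chosen with earlier results of these data known, so these shares describe the lists and are no test of them. Genes with a small SE are also called more easily, and the median SE over all tested genes was 0.118. The list of the m6A writer complex and other m6A methyltransferases holds 12 genes besides METTL3, some of them subunits or partners without catalytic activity. They include the METTL3 partners METTL14, WTAP, VIRMA and ZC3H13. The median log2 fold change of these 12 was 0.03, and 1 was called higher and 0 lower. This was TRMT112, the partner that stabilizes the ribosomal RNA methyltransferase METTL5, which rose from 155 ± 7.72 to 181 ± 2.7 CPM (SD, n = 2). The log2 difference was 0.22 (SE 0.06, adjusted p = 0.020 in edgeR), but 0.11 with the length trend removed, where it was not called (adjusted p = 0.22). VIRMA, a scaffold of the writer complex, was called in its place there (0.17, adjusted p = 0.042 in edgeR), so the list again had 1 call. The median over all tested genes was -0.0056.

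Among 12 other proteins described as binding m6A, 1 was called higher and 2 lower, or 25.0% against 10.8% over all genes. HNRNPA2B1, a nuclear splicing factor, rose by 0.32 (SE 0.06, adjusted p = 0.00081 in edgeR). IGF2BP2, which is known to stabilize bound messenger RNA, fell by 0.26 on the log2 scale (SE 0.07, adjusted p = 0.014 in edgeR). FMR1, the fragile X protein gene, fell from 45.9 ± 3.24 to 37.3 ± 2.78 CPM (SD, n = 2), a difference of -0.30 on the log2 scale (SE 0.09, adjusted p = 0.024 in edgeR). It was not called with the length trend removed (-0.24, adjusted p = 0.063) or in DESeq2. With the length trend removed the balance turned to 4 higher and 1 lower, since HNRNPC (0.18, adjusted p = 0.027), RBMX (0.18, adjusted p = 0.034) and ELAVL1 (0.19, adjusted p = 0.029) were then called in edgeR. The list's median was -0.07, and 7 of 12 estimates were negative.

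In the AlkB family, 1 of the 7 relatives of FTO and ALKBH5 was called. ALKBH2, which repairs alkylated DNA, rose from 35.7 ± 3.04 to 44.8 ± 0.910 CPM (SD, n = 2), that is by 0.33 on the log2 scale (SE 0.09, adjusted p = 0.014 in edgeR). ALKBH8, which modifies the wobble base of transfer RNA, had the next smallest p-value and was not called, at 20.4 ± 0.0113 and 16.5 ± 0.354 CPM (SD, n = 2) and an adjusted p of 0.066 in edgeR. The list's median was 0.03.

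Of 17 genes for the CCR4-NOT deadenylase and other decay factors linked to YTH proteins, 1 was called higher and 1 lower. RIDA, known as HRSP12 for bridging YTHDF2 to an endonuclease, rose from 42.7 ± 1.46 to 55.9 ± 2.42 CPM (SD, n = 2), that is by 0.39 on the log2 scale (SE 0.08, adjusted p = 0.0019 in edgeR). XRN1, the cytoplasmic exonuclease that binds YTHDC2, fell by 0.34 on the log2 scale (SE 0.11, adjusted p = 0.040 in edgeR), from 34.2 ± 6.92 to 27.1 ± 0.668 CPM (SD, n = 2). The fall in XRN1 rested on shNC replicate 1, since its log2 fold change was -0.12 without that library, against -0.53 when shNC replicate 2 was left out, and it was not called with the length trend removed or in DESeq2. CNOT7, a deadenylase subunit, was called with the length trend removed (0.26, adjusted p = 0.033 in edgeR). The list's median was 0.024.

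Of 8 splicing and export factors around YTHDC1, 3 were called, all higher, with a median of 0.18. That is 37.5%, against 10.8% called in either direction and 5.43% called higher over all genes. The SEs of the 8 ran from 0.058 (TRA2B) to 0.082 (TRA2A), below the median of 0.118 over all tested genes. The shares were thus not compared at equal precision, and this list too was chosen with earlier results known. In edgeR the export adaptor ALYREF rose by 0.25 on the log2 scale (SE 0.06, adjusted p = 0.011). SRSF7, an export and splicing factor, rose by 0.22 (SE 0.06, adjusted p = 0.022), and SRSF3, the splicing factor that YTHDC1 recruits, by 0.19 (SE 0.06, adjusted p = 0.035). With library size alone as the scaling, 1 of the 8 was called and the median was 0.14. With the length trend removed ALYREF lost its call (0.13, adjusted p = 0.14) and the splicing factor TRA2B gained one (0.18, adjusted p = 0.034 in edgeR). The genes VIRMA, HNRNPC, RBMX, ELAVL1, CNOT7 and TRA2B were chosen after their values were seen.

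**Figure D5:**
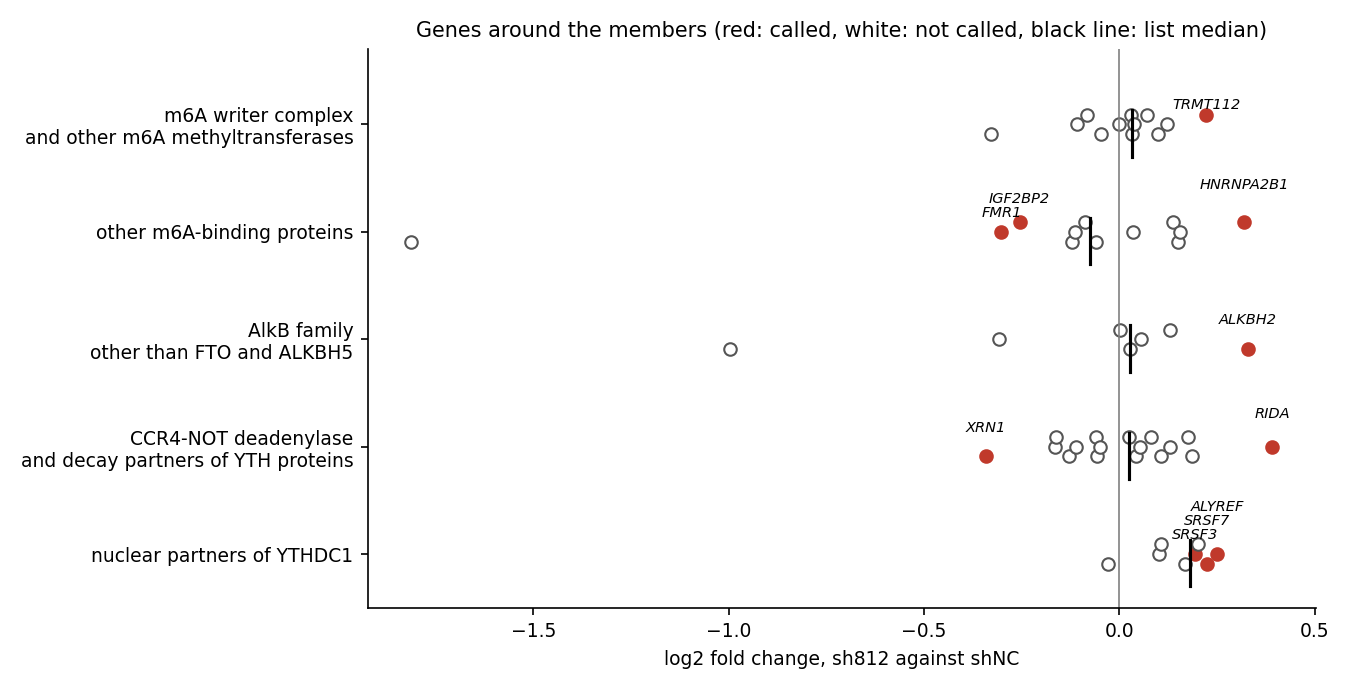
Log2 fold change of every gene in the 5 lists other than METTL3 (red, called; white, not called; black line, list median). The 10 called genes lie between -0.34 (XRN1) and 0.39 (RIDA), and the far points on the left, IGF2BP1 and ALKBH6, had a mean below 1 CPM in both groups and were not called; they are named because they stand apart.

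Of the 10 called genes in these lists, IGF2BP2, HNRNPA2B1, ALKBH2 and RIDA kept their call in all 10 alternatives that used the 4 libraries. None of the 10 kept its call in every fit with 1 library left out, where an arm has 1 sample. Depending on the gene, calls were lost without sh812 replicate 1, sh812 replicate 2 or shNC replicate 1. Leaving out either sh812 library also lowered the number of called genes over the whole table. All 10 genes kept their direction in these fits, with XRN1 from -0.53 to -0.12 on the log2 scale. Other genes share exonic bases on the opposite strand with TRMT112 (284 bases of ESRRA), HNRNPA2B1 (368 bases of CBX3) and ALYREF (62 bases of ANAPC11). The targeted METTL3 likewise shares 388 exonic bases with TOX4, which had 3297 to 3831 counts in a library. The part of such overlaps in the counts and in the METTL3 ratios was not tested. Whether the counting used strand is not given in the sources used here.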

How the data were processed

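Poly(A) RNA of 4 PC3 libraries was sequenced from a strand-specific dUTP preparation, per the labels' protocols. The authors deposited raw counts per gene. The submitters' processing notes name fastp, STAR 2.7.1a, featureCounts, DESeq2 and the build hg38; the annotation and the strand setting are not given in the sources used here. Counts were tested as deposited with edgeR 4.0.16 in R 4.3.3 (filterByExpr, TMM, glmQLFit, glmQLFTest, all 4 libraries, no covariate), with Benjamini-Hochberg adjustment over the genes tested and a threshold of 0.05. SEs come from the F statistic and 95% intervals from its degrees of freedom. The size needed for a call is the SE times the t quantile at the largest called p (0.0054). Replicates differed by more than sampling noise (chi-square per gene 8.43 and 4.51). Positions, exon lengths and transcripts come from GENCODE 29 (GRCh38), start windows from RefSeq. The members and lists were chosen with earlier results of these data known. Genes named are METTL3, the members, called list genes, the 2 genes with the smallest p of each list, genes over a member and the closest pattern to each member. Other genes are named as markers, neighbours, copies or list members, or after their values were seen. Alternatives were RLE, upper quartile or no scaling factors, no filter, a mean of 1 CPM, DESeq2 1.42.0, limma-voom 3.58.1, a replicate block, removal of length and GC trends (lowess, span 0.3) and each library left out.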

Additional observations from a re-analysis of the deposited data

How the results depend on the processing

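The members gave 0 calls in the 10 alternatives that used all 4 libraries, and METTL3 was called in all of them. Direction changed for YTHDF1 with library size alone (-0.015), the length trend removed (-0.018) and length and GC removed (-0.014), and for YTHDC1 with length removed (0.0042) and length and GC removed (0.016). With library size alone 561 genes were called higher, against 912, and the median of all genes was -0.050. DESeq2 called 585 genes lower, against 910. For none of these was the cause tested.

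With library size alone the writer list had 0 calls (median -0.014), the AlkB list 2, and the YTHDC1 partners 1 (0.14); the medians of the other binding proteins and the decay list were -0.12 and -0.021. With length removed, then with length and GC removed, the binding proteins had 5 calls in both (medians -0.016 and -0.018), and medians were -0.066 and -0.085 (AlkB), 0.030 and 0.037 (decay), and 0.15 and 0.15 (YTHDC1 partners). The decay list had 1 call and a median of 0.029 in DESeq2, and a median of 0.018 with a mean CPM of at least 1. With the longest transcript as length, YTHDF1 made up 34.3% (shNC) and 34.1% (sh812) of the YTHDF level. In the same order YTHDF2 made up 41.7% and 44.1%, and YTHDF3 24.0% and 21.8%. ALKBH5 over FTO was 15.2 and 16.2, and YTHDC1 over YTHDC2 was 2.51 and 2.80. A fold change prior count of 2 changed no direction and no call.

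With 1 library left out, log2 fold changes ran from -2.52 to -2.33 (METTL3), 0.0087 to 0.16 (FTO), 0.14 to 0.22 (ALKBH5), -0.016 to 0.086 (YTHDF1), 0.066 to 0.18 (YTHDF2), -0.15 to -0.055 (YTHDF3), -0.17 to 0.12 (YTHDC1) and -0.21 to -0.17 (YTHDC2). Members called ran from 0 to 3, all genes from 261 to 1703 (higher) and 326 to 1549 (lower). List calls ran from 0 to 1 (writers), 0 to 6 (binding proteins), 0 to 1 (AlkB), 0 to 5 (decay) and 0 to 5 (YTHDC1 partners). Medians ran from 0.013 to 0.041 (writers), -0.098 to -0.046 (binding proteins), -0.037 to 0.068 (AlkB), -0.014 to 0.059 (decay) and 0.15 to 0.18 (YTHDC1 partners).

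Replicates carry the numbers 1 and 2 in both groups. Over the better-expressed tested genes the deviations of equally numbered libraries correlated at 0.037. A single correlation over many genes cannot show whether these libraries shared a culture or a preparation, which was not tested. With replicate as a block the log2 fold changes were 0.18 for ALKBH5, -0.19 for YTHDC2 and -2.42 for METTL3, and 0 members were called. With 2 libraries a group, changes below about 0.19 to 0.27 (log2) in these genes could not be called.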
